A study of Homo sapiens with 6 samples.

Results

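HUERS-P is a small group of human endogenous retroviruses, remnants of ancient retroviral infections of the germ line. Its members were taken as every sequence whose name starts with HUERS, which gave 4 of the 1047 sequences in the deposited tables: HUERS-P1, HUERS-P2, HUERS-P3 and HUERS-P3B. All 4 passed the filter of at least 10 counts in at least 1 library, as did 699 sequences in all. The group was chosen because HUERS-P1 RNA was higher with doxycycline (dox) in all 3 cell lines of the study. Those values are therefore a description here, and no p is given for any member's response to dox.

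An endogenous retrovirus consists of an internal sequence, derived from gag, pol and env genes, between a pair of long terminal repeats (LTRs) that hold its promoter and its polyadenylation signal. HUERS-P elements belong to the gammaretrovirus-like class and are named for the proline transfer RNA that primed their reverse transcription. The 4 names denote internal sequences, and LTR8, LTR1 and LTR9 are the LTRs catalogued with HUERS-P1, HUERS-P2 and HUERS-P3. Recombination between the LTRs of a provirus leaves a solitary LTR without internal sequence, so that LTRs outnumber internal sequences in the genome. The RNA exosome degrades and trims RNA in the nucleus and cytoplasm, including short-lived noncoding transcripts.

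The 6 libraries were made from total RNA of H1 cells, a human embryonic stem cell line, which were used between passages 40 and 60. A dox-inducible short hairpin RNA was present in all of them, and its target is EXOSC3, the gene of an exosome subunit. EXOSC3r cells also carried an EXOSC3 transgene that the hairpin does not match and were studied as 2 clones, each with 1 library with dox and 1 without. PB cells carried the empty vector instead, with 1 library with dox and 1 without. There was no line without the hairpin, and the time on dox is not given in the sources used here. The tables hold repeat consensus sequences plus ACTB and GAPDH, so EXOSC3 and the markers of stem cell identity were not analysed here. Between 3745262 and 5260196 estimated counts were assigned per library, which is not sequencing depth. Values are CPM, counts relative to the assigned total, scaled by the trimmed mean of M-values (TMM), a scaling that centres on the bulk of the sequences.

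HUERS-P sequences took a small share of these RNAs. In EXOSC3r clone 1 the 4 together held 0.159% of assigned counts with dox (95% Clopper-Pearson interval 0.155 to 0.162) and 0.158% without (0.154 to 0.162). In clone 2 they held 0.214% with dox (0.209 to 0.218) and 0.181% without (0.177 to 0.186). In PB cells they held 0.260% with dox (0.255 to 0.265) and 0.195% without (0.191 to 0.199). These intervals cover counting error only. The share was higher with dox in clone 2 and PB cells, whereas in clone 1 the intervals overlap. The share of Alu repeats differed between the libraries too. It was 52.5% with dox and 45.4% without in clone 1, 40.1% with and 41.8% without in clone 2, and 33.0% with and 37.3% without in PB cells. Its part in the HUERS-P shares was not tested.

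Per unit of length the 4 members kept the same order in every library. HUERS-P3B, with a consensus of 7418 bases, had the highest level, from 111 to 142 CPM per kilobase of effective length. HUERS-P1 (6263 bases) followed at 81.5 to 124, HUERS-P3 (8919 bases) at 37.0 to 45.8 and HUERS-P2 (3088 bases) at 20.4 to 25.7 CPM per kilobase. HUERS-P3B and HUERS-P1 were close neighbours, with a ratio between 1.01 in clone 1 with dox and 1.39 in PB cells without dox. HUERS-P1 stood 2.15 to 3.02 times above HUERS-P3, and HUERS-P3 stood 1.55 to 2.25 times above HUERS-P2. Among 74 tested internal sequences of endogenous retroviruses ranked by this level in each library, HUERS-P3B ranked 15 or 16, HUERS-P1 between 17 and 20, HUERS-P3 at 32 or 33 and HUERS-P2 between 38 and 43. The group thus spans the upper and middle part of that ranking.

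The estimated counts also show how far reads were divided between sequences. HUERS-P2 had whole-number counts, within 1e-04, in 5 of 6 libraries, as when no read is divided with another sequence. HUERS-P1, HUERS-P3 and HUERS-P3B had whole-number counts in 0 of 6, so that some of their reads were divided between sequences by estimation. Which sequences shared those reads was not examined. The sum of HUERS-P3 and HUERS-P3B is also given below.

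HUERS-P1 was the member on which the choice of the group rested. In EXOSC3r clone 1 its level was 758 CPM with dox and 573 CPM without, and in clone 2 it was 682 CPM with dox and 548 CPM without. In PB cells it was 704 CPM with dox and 497 CPM without. With TMM the 3 libraries with dox lay above the 3 without dox, with no overlap. The same was true of 7.87% of all 699 tested sequences. The ranges overlap in the deposited TPM, which are corrected for length and scaled to these sequences alone. Clone 1 with dox had a TPM of 20.9, below clone 2 without dox (25.1) and PB cells without dox (27.3). Relative to ACTB plus GAPDH counts clone 1 with dox was likewise below both. The log2 change with dox was 0.40 in clone 1 (95% counting interval 0.33 to 0.48), 0.32 in clone 2 (0.24 to 0.40) and 0.50 in PB cells (0.43 to 0.57), or 1.32-fold, 1.25-fold and 1.42-fold. In bulk RNA, a larger share of cells with HUERS-P1 RNA and more of it per cell cannot be told apart.

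HUERS-P3B, the most abundant member, showed smaller changes in the same direction with TMM, though not in clone 1 with total counts. It stood at 913 CPM with dox and 809 CPM without in clone 1, at 881 CPM with dox and 827 CPM without in clone 2, and at 1031 CPM with dox and 820 CPM without in PB cells. With TMM the libraries with dox again lay above those without, as was true of 7.87% of all tested sequences. In TPM clone 1 with dox (21.2) lay below every library without dox (24.8 to 37.8). The log2 changes with TMM were 0.17 in clone 1, 0.09 in clone 2 and 0.33 in PB cells. The PB library with dox was the highest of the 6.

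HUERS-P3 did not move one way across the lines. It stood at 401 CPM with dox and 350 CPM without in clone 1, at 324 CPM with dox and 340 CPM without in clone 2, and at 346 CPM with dox and 332 CPM without in PB cells. With TMM only clone 1 with dox stood clearly apart from the other 5 libraries, above them. In TPM the same library was instead the lowest, at 7.71, with the others from 8.89 to 15.5. The log2 changes with TMM were 0.20 in clone 1, -0.07 in clone 2 and 0.06 in PB cells. Summed with HUERS-P3B, the log2 changes were 0.18 in clone 1, 0.05 in clone 2 and 0.26 in PB cells, so with TMM the sum was higher with dox in each line.

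HUERS-P2, the least abundant member, went the other way in the clones. It stood at 59.6 CPM with dox and 75.3 CPM without in clone 1, and at 61.6 CPM with dox and 71.5 CPM without in clone 2. In PB cells it was nearly level, at 62.8 CPM with dox and 62.2 CPM without. These values rest on 233 to 348 counts, and the counting interval of the log2 change was -0.58 to -0.09 in clone 1, -0.46 to 0.03 in clone 2 and -0.21 to 0.23 in PB cells. The 3 libraries with dox spanned 59.6 to 62.8 CPM, whereas those without spanned 62.2 to 75.3 CPM, so the ranges overlap at PB cells without dox.

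**Figure D1:**
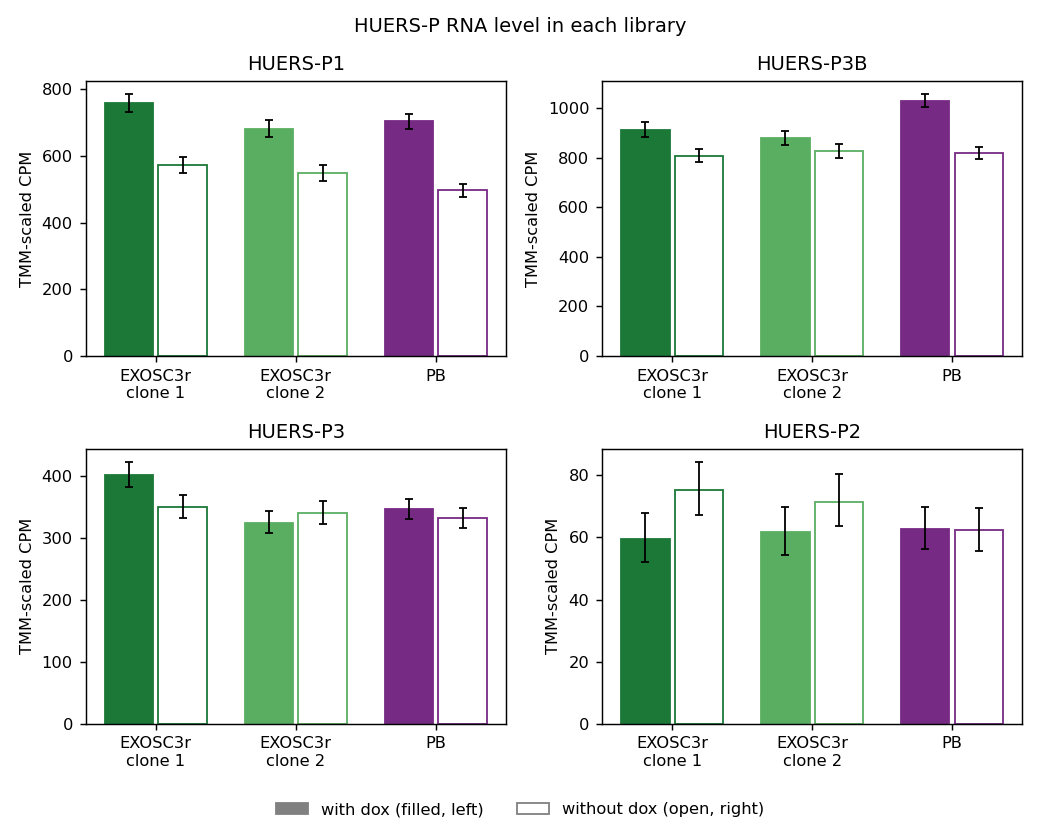
TMM-scaled CPM (y axis, from 0) of each HUERS-P member in the 6 libraries, with dox filled and without dox open, and error bars for the 95% Poisson interval of the count. With this scaling HUERS-P1 and HUERS-P3B lie higher with dox in every line (HUERS-P3B in clone 1 turns to -0.06 on the log2 scale with total counts), HUERS-P3 does so in clone 1 and by less in PB cells, and HUERS-P2 lies lower with dox in both clones.

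With the sign of the TMM-scaled change as the criterion, HUERS-P1 and HUERS-P3B were higher with dox in all 3 lines, as were 16.6% of the 699 tested sequences (116) and 14.6% of the 253 that averaged 100 CPM or more (37). The smallest change of the 3 lines was 0.32 for HUERS-P1 and 0.09 for HUERS-P3B, just inside the criterion. It was -0.07 for HUERS-P3, just outside it, and -0.34 for HUERS-P2. Of all 699 tested sequences, 12 had a smallest change at least as large as that of HUERS-P1, itself included. Of the 253 with at least 100 CPM, 4 did. The others of these 4 were the alpha satellite sequences ALR, ALR1 and ALR_, tandem repeats of centromeres, which are named here because of their values. Among 70 other tested internal sequences of endogenous retroviruses, 8 were higher with dox in all 3 lines and 19 were lower in all 3, beside 16.6% and 15.7% of all tested sequences.

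In the fit across all sequences, edgeR's quasi-likelihood test with 4 group means, HUERS-P1 had a log2 change with dox of 0.36 ± 0.08 (SE) in EXOSC3r cells and 0.50 ± 0.11 in PB cells. HUERS-P3B had 0.13 ± 0.06 in EXOSC3r and 0.33 ± 0.09 in PB cells, and HUERS-P3 had 0.07 ± 0.11 in EXOSC3r and 0.06 ± 0.15 in PB cells. HUERS-P2 had -0.28 ± 0.12 in EXOSC3r and 0.01 ± 0.17 in PB cells. No call is made for a member in either dox comparison, since the group was chosen from these changes. For the same reason the SEs are not a test of them, and in PB cells the SE rests on the spread between the clones. The median log2 change of the 4 members was 0.10 in EXOSC3r cells and 0.20 in PB cells, beside 0.01 in EXOSC3r and 0.00 in PB cells for all tested sequences. The member medians include HUERS-P1, on which the choice rested, and are a description only.

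The size of these changes depended on the scaling, most of all in clone 1. The Alu share was higher with dox in clone 1 and lower with dox in clone 2 and PB cells, and its part was not tested. With total counts in place of TMM, HUERS-P1 had log2 changes of 0.17 in clone 1, 0.43 in clone 2 and 0.59 in PB cells. Scaled to ACTB plus GAPDH, a choice made after seeing the data, they were 0.25, 0.45 and 0.67. Deposited TPM, which are corrected for length and scaled to these sequences alone, were 20.9 for HUERS-P1 in clone 1 both with and without dox, 34.1 with and 25.1 without in clone 2, and 45.3 with and 27.3 without in PB cells. HUERS-P1 was thus higher with dox in all 3 lines under each of the 4 count scalings, while its TPM was level in clone 1. TPM of all tested sequences shifted by a median log2 of -0.40 with dox in clone 1, and relative to that shift HUERS-P1 was higher by 0.40. With total counts HUERS-P3B in clone 1 turned to -0.06, HUERS-P3 in clone 1 turned to -0.03 and HUERS-P3 in clone 2 turned to 0.04, while the median of all sequences moved to -0.23 in clone 1, 0.11 in clone 2 and 0.09 in PB cells. HUERS-P2 stayed lower with dox in both clones with all 4 scalings, while in PB cells it lay between -0.00 and 0.19.

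**Figure D2:**
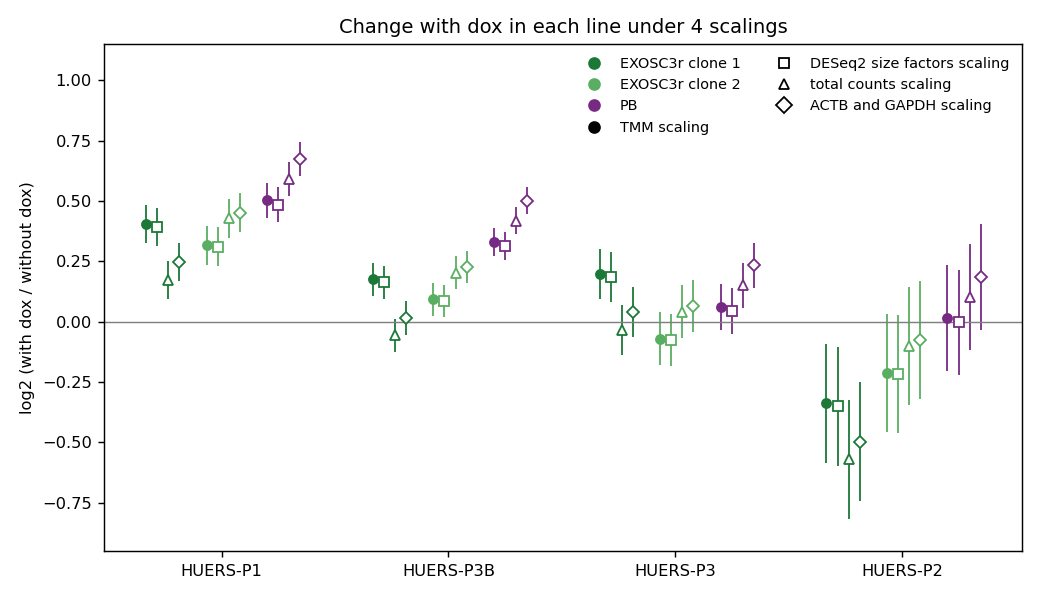
Log2 ratio of the level with dox to the level without (y axis) for each member and line, with symbols for 4 scalings and bars for 95% counting intervals. Every HUERS-P1 point lies above 0, between 0.17 and 0.67, and both clones lie below 0 for HUERS-P2.

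Ratios between sequences of the same library do not depend on the scaling. The HUERS-P1 count was 0.83 of the HUERS-P3B count with dox and 0.71 without in clone 1, 0.77 with and 0.66 without in clone 2, and 0.68 with and 0.61 without in PB cells. The ratio was higher with dox in each line, by log2 changes of 0.23, 0.22 and 0.17. Relative to HUERS-P3 the changes were 0.21 in clone 1, 0.39 in clone 2 and 0.44 in PB cells, and relative to HUERS-P2 they were 0.74, 0.53 and 0.49. Of the HUERS-P reads, HUERS-P1 took 35.6% with dox and 31.7% without in clone 1, 35.0% with and 30.7% without in clone 2, and 32.9% with and 29.1% without in PB cells. These shares use the values that chose HUERS-P1 and are a description of single libraries.

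**Figure D3:**
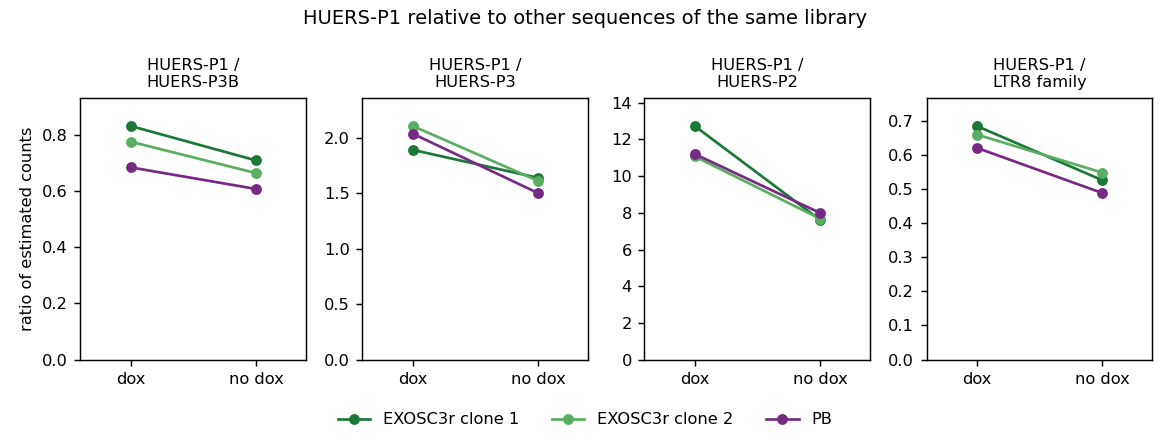
Ratio of estimated counts (y axis, from 0) of HUERS-P1 to HUERS-P3B, HUERS-P3, HUERS-P2 and the summed LTR8 family, with dox on the left and without on the right, joined within each line. All 12 lines fall from left to right, so HUERS-P1 was higher relative to each of them with dox. HUERS-P1 was chosen for its rise with dox, so this is a description only.

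LTRs were examined by name: 3 LTR8, 15 LTR1 and 5 LTR9 sequences were tested. LTR8, the LTR catalogued with HUERS-P1, was far more abundant per length than the internal sequence, at 1385 to 1636 CPM per kilobase, which was 13.0 to 17.6 times the HUERS-P1 level of the same library. It changed less with dox than HUERS-P1. LTR8 stood at 853 CPM with dox and 822 CPM without in clone 1, at 781 CPM with dox and 741 CPM without in clone 2, and at 875 CPM with dox and 764 CPM without in PB cells. Its log2 changes were 0.05 in clone 1, 0.08 in clone 2 and 0.20 in PB cells with TMM, each smaller than that of HUERS-P1 in the same line. In clone 1 the direction of LTR8 turned to -0.18 with total counts and to -0.11 with ACTB and GAPDH scaling. HUERS-P1 was accordingly higher relative to the 3 summed LTR8 sequences, by 0.38 in clone 1, 0.27 in clone 2 and 0.35 in PB cells. HUERS-P1 was chosen for its rise with dox and LTR8 was not, so this comparison is a description only. LTR8A had log2 changes of -0.09 in clone 1, -0.13 in clone 2 and 0.22 in PB cells, and LTR8B had -0.05, 0.08 and -0.19.

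The 5 LTR9 sequences were each higher with dox in PB cells, from 0.12 for LTR9D to 0.43 for LTR9A1. In the edgeR fit 357 of the 699 tested sequences were higher with dox in PB cells. The PB values rest on 1 library with dox and 1 without. Summed, they stood at 518 CPM with dox and 538 CPM without in clone 1, at 533 CPM with and without dox in clone 2, and at 605 CPM with dox and 510 CPM without in PB cells. The LTR9 sum thus stood out in the PB library with dox, as HUERS-P3B did, while with TMM the clones were nearly level. With total counts its log2 change was -0.29 in clone 1, 0.11 in clone 2 and 0.33 in PB cells. LTR9B, the most abundant of them, was 4.74 to 5.42 times the HUERS-P3B level per kilobase. The 15 LTR1 sequences summed to 847 CPM with dox and 893 CPM without in clone 1, 818 CPM with and 833 CPM without in clone 2, and 837 CPM with and 869 CPM without in PB cells. With TMM the LTR1 sum had log2 changes of -0.08 in clone 1, -0.03 in clone 2 and -0.05 in PB cells, whereas with total counts it had -0.31 in clone 1, 0.09 in clone 2 and 0.03 in PB cells. LTR1A2, the most abundant of them, had -0.04 in clone 1, -0.05 in clone 2 and -0.09 in PB cells.

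Of the 23 LTR sequences, the edgeR test at an adjusted threshold of 0.05 called 0 in either dox comparison, against 0.143% of all tested sequences in EXOSC3r cells and 0.858% in PB cells. At an unadjusted p under 0.05 there was 1 in EXOSC3r cells, against 3.15%, and there were 2 in PB cells, against 4.01%, and DESeq2 called 0 in both. With TMM 6 of the 23 were higher with dox in all 3 lines and 6 were lower in all 3, beside 16.6% and 15.7% of all tested sequences. Their median log2 change was -0.04 in EXOSC3r cells and 0.05 in PB cells.

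**Figure D4:**
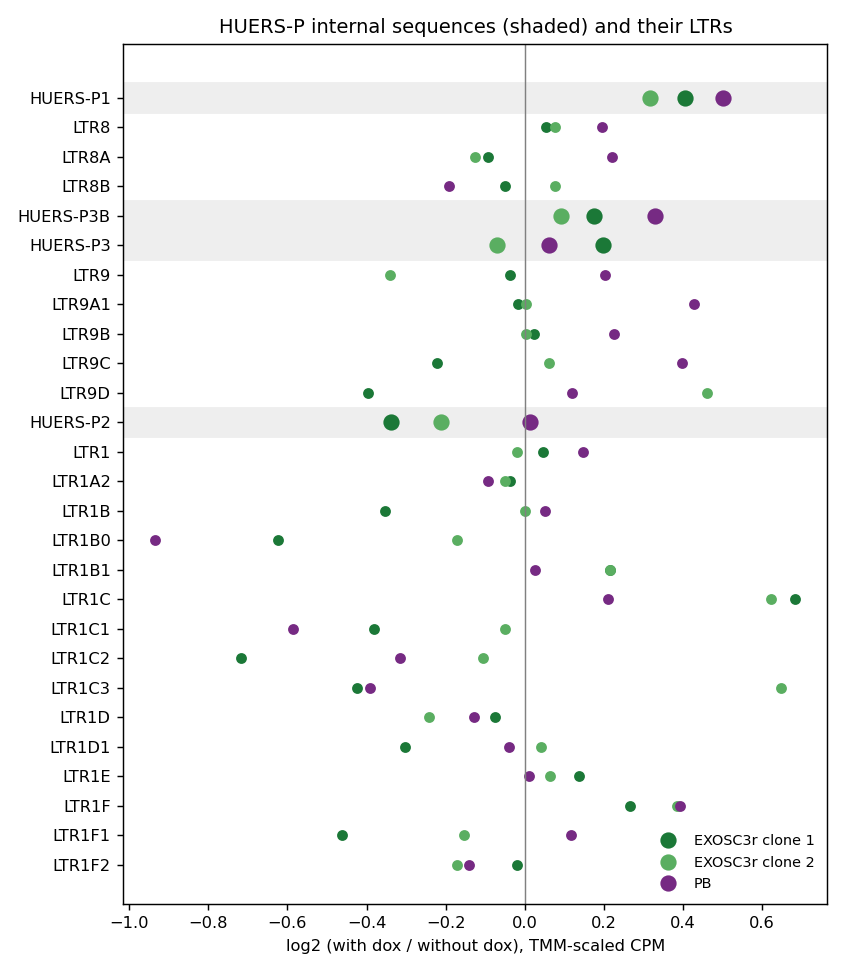
Log2 ratio of TMM-scaled CPM with dox to without dox (x axis) for the HUERS-P internal sequences (shaded, large points) and the LTR sequences by name, with a colour for each line. All 3 HUERS-P1 points, whose rise with dox chose the group, lie to the right of the LTR8, LTR8A and LTR8B points. The PB point of each LTR9 sequence lies right of 0.

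Differences between EXOSC3r and PB cells did not enter the choice of the group and were tested. With dox, 0 of the 4 members passed in the edgeR test, against 1.00% of all tested sequences, with 1 member at an unadjusted p under 0.05, against 7.58%, and 0 called by DESeq2. With the line as a block 0 members passed, against 3.15%. That member was HUERS-P3B, at 897 ± 22.7 CPM in EXOSC3r cells (SD, n = 2 clones) and 1031 CPM in PB cells, which is a log2 difference of -0.20 ± 0.08 (SE, edgeR, adjusted p = 0.61). Both clones lay below the PB library, as was true of 33.6% of all tested sequences. HUERS-P1 stood at 720 ± 53.7 CPM in EXOSC3r cells and 704 CPM in PB cells, with the PB library between the clones (log2 difference 0.03 ± 0.09, edgeR adjusted p = 0.96). HUERS-P3 and HUERS-P2 had log2 differences of 0.07 ± 0.13 and -0.05 ± 0.15. For HUERS-P1 and HUERS-P3 the sign of the difference rested on clone 1: without its library with dox the differences were -0.05 and -0.10. The direction for HUERS-P1 also turned with limma on log2(TPM + 1), at -0.04 relative to the median of all sequences.

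Without dox, the edgeR test called 0 of the 4 members between EXOSC3r and PB, against 0.00% of all tested sequences. At an unadjusted p under 0.05 there were 0 members and 16 sequences in all (2.29%), and DESeq2 called 0. HUERS-P1 stood at 561 ± 17.5 CPM in EXOSC3r cells (SD, n = 2) and 497 CPM in PB cells, which is a log2 difference of 0.17 ± 0.09 (edgeR adjusted p = 0.97). HUERS-P2 stood at 73.4 ± 2.69 CPM in EXOSC3r cells and 62.2 CPM in PB cells, with a log2 difference of 0.24 ± 0.15. HUERS-P3 (0.06 ± 0.13) and HUERS-P3B (-0.00 ± 0.08) lay nearer to 0. For HUERS-P1 and HUERS-P2 both clones lay above the PB library, as did 34.3% of all tested sequences. Neither difference passed, and with the line as a block the adjusted p was 0.42 for HUERS-P1 and 0.63 for HUERS-P2. The block fit sets the difference in level between clones aside, so its p-values do not measure that spread.

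Whether the vectors differed in their response to dox was tested as the response of PB cells minus that of EXOSC3r cells. This difference is built from the same dox responses that chose HUERS-P1, so for HUERS-P1 it is a description only. In the edgeR interaction test 0 of the 4 members passed, against 0.00% of all sequences, with 0 members and 9 sequences in all (1.29%) at an unadjusted p under 0.05. DESeq2 called 0 members and 3 sequences, and the fit with the line as a block 0 members and 0.429% of sequences. The HUERS-P1 response of PB cells exceeded that of EXOSC3r cells by a log2 difference of 0.14 ± 0.13. For HUERS-P3B the difference was 0.20 ± 0.11, for HUERS-P2 0.29 ± 0.21 and for HUERS-P3 -0.01 ± 0.19, and the last changed sign with total counts, ACTB and GAPDH scaling, TPM, and when clone 1 with dox (0.16) or clone 2 without dox (0.016) was left out, but not when either other clone library was. All 5 LTR9 sequences had a larger response in PB cells, as did 339 of the 699 tested sequences. The median difference of the 5 was 0.40 beside -0.01 for all tested sequences, and 0 of the 5 passed. The 5 signs share the same PB libraries, 1 with dox and 1 without.

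Between the clones, each measured with and without dox, no HUERS-P member passed the test. The log2 difference, clone 2 minus clone 1, was -0.11 ± 0.04 for HUERS-P1, -0.17 ± 0.07 for HUERS-P3, -0.01 ± 0.12 for HUERS-P2 and -0.01 ± 0.04 for HUERS-P3B. The edgeR test called 0 of the 4, against 0.00% of all sequences, with 0 members and 99 sequences in all (14.2%) at an unadjusted p under 0.05. DESeq2 called 0 members and 5 sequences. With TMM the HUERS-P3 difference was -0.31 between the libraries with dox and -0.04 between those without, so it was larger with dox. With this scaling the clone 1 library with dox was the highest of the 6, whereas in TPM it was the lowest.

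The sequences most like HUERS-P1 were sought by Pearson's r of log2(CPM + 1) over the 6 libraries, among 522 sequences with a mean of at least 10 CPM. The highest were HERVG25 (r = 0.97), LTR2B (0.97), LTR1F (0.95), LTR6A (0.95) and LTR76 (0.94), all named as endogenous retrovirus internal or LTR sequences. Such names are common, with 172 LTR-named and 70 other internal sequences among the 699 tested. The points behind each r share their libraries and scaling, and the 5 are the highest of 522 candidates, so r is a description only. HERVG25, the internal sequence of another endogenous retrovirus, stood at 16.4 CPM with dox and 9.91 CPM without in clone 1, 12.2 CPM with and 9.75 CPM without in clone 2, and 15.3 CPM with and 7.02 CPM without in PB cells. LTR2B had log2 changes of 0.09 in clone 1, 0.03 in clone 2 and 0.08 in PB cells, each smaller than that of HUERS-P1. Among the members themselves, r with HUERS-P1 was 0.76 for HUERS-P3B, 0.55 for HUERS-P3 and -0.53 for HUERS-P2.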

How the data were processed

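Per the submitters' processing notes, the tools included Salmon 0.13.0, Trimmomatic 0.36 and bcl2fastq 2.17. The Salmon index and options are not given in the sources used here. Per the labels' protocols, libraries were stranded and made from total RNA depleted of ribosomal RNA. Per the file headers, the deposited tables list 1047 sequences with their length, effective length, TPM and estimated count. The deposited estimated counts are not normalised, and the authors' TPM values are scaled to these sequences alone. The 1045 repeat names are consensus sequences, which stand for many genomic copies and have no single position.

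Counts were rounded to whole numbers, and a sequence was tested with at least 10 counts in at least 1 library (699 of 799 with any count). The test was the quasi-likelihood test of edgeR 4.0.16 in R 4.3.3, with TMM, 4 group means and Benjamini-Hochberg adjustment at 0.05 over all tested sequences. Its 2 residual degrees of freedom come from the clones, so the lone PB libraries were taken to vary like clones and p-values measure the spread between clones. The clone comparison used terms for line, dox and dox by vector (1 residual degree of freedom). In that fit, also used for the line as a block, the spread is how far the clones differed in their response to dox. The SE is the log2 change divided by the square root of F. Counting intervals are at 95% and cover counting error only. DESeq2 1.42.0 and limma 3.58.1 were alternatives. The code was tested on simulated counts.

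Clone numbers pair the samples, since both libraries of a clone are of 1 cell line. With and without dox, clone 1 deviated from the clone mean with a Pearson correlation of 0.15 over 699 sequences and 0.60 over the 253 with at least 100 CPM. The line as a block was an alternative. Chi-square per degree of freedom was 20.9 to 860 between pairs of libraries, so none was a copy of another.

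The members, the LTR and comparison lists and the rule for naming were chosen with earlier results of these data known. The rule names every member, the LTRs catalogued with them, and the 5 sequences most correlated with HUERS-P1.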

Additional observations from a re-analysis of the deposited data

Results flagged for a closer look

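HUERS-P2 drew attention because its level was slightly higher with dox in the PB line and lower with dox in both EXOSC3r clones. Its response in PB cells minus that in EXOSC3r cells was 0.29 ± 0.21 on the log2 scale (SE, edgeR interaction test, adjusted p = 1.00), so the difference did not pass. The change in PB cells was 0.01, within a counting interval of -0.21 to 0.23. Higher in PB cells and lower in both clones was the order of 11.6% of all 699 tested sequences. Groups here hold 1 or 2 libraries, too few for any test of a library that stands apart.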

How the results depend on the processing

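Scaling to ACTB and GAPDH was chosen after seeing the data. Some settings (total counts, ACTB and GAPDH, TPM) shifted the log2 median of all sequences by more than 0.1 in some comparisons, by up to -0.77. Where they did so, member values here are relative to that shift. Smaller shifts were not subtracted. These were 0.09 in PB and -0.03 in EXOSC3r cells for dox with total counts, and 0.02 in EXOSC3r cells with ACTB and GAPDH. For the changes that follow the cause was not tested. HUERS-P1 was higher with dox in all 13 alternatives, by 0.28 to 0.44 in EXOSC3r and 0.48 to 0.59 in PB cells, and HUERS-P3B by 0.09 to 0.16 and 0.31 to 0.42. These are the changes the group was chosen from, so the tally is a description only. In PB cells the fits with a line block or without a clone library use the same PB libraries, so they could hardly change the value. Before the shift was subtracted, HUERS-P1 TPM in clone 1 was 20.9 both with and without dox.

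LTR8 with dox in EXOSC3r cells turned to -0.0074 without the clone 1 library with dox and to -0.016 without the clone 2 library without dox. Members turned direction as follows. EXOSC3r minus PB with dox was -0.038 for HUERS-P1 with limma on log2(TPM + 1), and without a clone library it lay between -0.050 and 0.11 for HUERS-P1 and between -0.10 and 0.22 for HUERS-P3. Without dox, HUERS-P3B lay between -0.014 and 0.012 with a library left out. The HUERS-P3 difference of responses was 0.021 with total counts, 0.033 with ACTB and GAPDH, 0.029 and 0.016 with limma on log2(TPM + 1) and log2(TPM + 0.1), and between -0.16 and 0.16 with a library left out. Clone 2 minus clone 1 for HUERS-P3B was 0.045 and 0.012 with limma on the same scales, and with a library left out it lay between -0.05 and 0.03, and that for HUERS-P2 between -0.07 and 0.05. With ACTB and GAPDH scaling HUERS-P2 and HUERS-P3B passed between clones in edgeR (adjusted p = 0.042 and 0.047), among 334 of the 699 tested sequences. That test used the differences before the shift was subtracted, and the median of all sequences was 0.60. Relative to the shift HUERS-P2 and HUERS-P3B lay at -0.0053 and 0.

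Counts of called sequences moved more. With total counts and ACTB and GAPDH scaling, they were 2 and 1 for dox in PB cells, 0 and 0 for dox in EXOSC3r cells, 3 and 1 for EXOSC3r minus PB with dox, 1 and 1 without dox, 1 and 1 for the difference of responses, and 8 and 334 between clones. With limma on log2(TPM + 1) and log2(TPM + 0.1) they were 2 and 4 for dox in EXOSC3r cells, 2 and 2 for EXOSC3r minus PB without dox, 3 and 7 for the difference of responses, and 18 and 15 between clones, and log2(TPM + 1) gave 4 for EXOSC3r minus PB with dox. DESeq2 gave 4 for dox in EXOSC3r cells, 3 for the difference of responses and 5 between clones, and its size factors 0 and 16 for the first and last. Requiring 10 counts in all 6 libraries gave 2, 2 and 16, no count filter 16 between clones, and summing the members 2 for dox in EXOSC3r cells and 14 between clones. With the line as replicate block the counts were 9 for dox in EXOSC3r cells, 22 for EXOSC3r minus PB with dox and 3 for the difference of responses, and it changed no member's call in the comparisons between EXOSC3r and PB or of their responses. Leaving out a clone library gave 4 to 7 for dox in PB cells, 0 to 4 for dox in EXOSC3r cells, 0 to 21 and 0 to 2 for EXOSC3r minus PB with and without dox, and 0 to 1 for the difference of responses. Between clones it leaves no residual degrees of freedom and gives no count.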
